A study of Mus musculus with 12 samples.

Results

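Gene expression in the heart was compared between Wnt loss-of-function (Wnt LOF) mice and control mice, with both chambers pooled, the left ventricle (LV) and the right (RV). The members are all 12 libraries of the series, 6 labelled Wnt LOF and 6 labelled control, and each genotype holds 3 LV and 3 RV libraries. All mice were adult, and total RNA was prepared from ventricle tissue with Trizol and sequenced. The labels give neither the gene or driver used to remove Wnt signalling, the strain, the exact age, nor whether the 2 ventricles carrying one number came from 1 heart. Levels are in CPM, the reads of a gene per 1e+06 reads of its library after TMM scaling, a difference is the log2 fold change of Wnt LOF against control from 1 model with the ventricle as a covariate, and "called" means an adjusted p under 0.05.

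Canonical Wnt signalling passes from secreted Wnt ligands through Frizzled and LRP receptors to beta-catenin. Without a ligand, a complex built on Axin and APC marks beta-catenin for destruction, and with a ligand it accumulates and acts with TCF and LEF factors on target genes. In the adult heart the pathway is known to act on gap junctions and ion channels. The series title asks how it programmes the 2 ventricles and bears on arrhythmia, and the pooled comparison asks what both ventricles share.

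No gene was called in the pooled comparison, which is 0% of the 15494 genes tested, and the quasi-likelihood test of edgeR gave a smallest adjusted p of 0.416. An unadjusted p under 0.05 was reached by 598 genes, of which 330 lay higher in Wnt LOF (2.13%) and 268 lay lower (1.73%). With total counts in place of TMM scaling, the same threshold gave 401 higher and 191 lower. The median log2 fold change of all tested genes was -0.002, with 7616 above 0 and 7878 below. All 6 Wnt LOF libraries lay above all 6 controls for 12 genes (0.0774%) and below them for 13 genes (0.0839%). Limma voom, with each combination of number and genotype as a random block (correlation within blocks 0.245), called 0 genes for genotype. DESeq2 called 8 in the same libraries, 6 of them among the leading genes given here (Ano4, Hspa12a, Plin2, Olfml2b, Aqp1 and Fabp5). The genes described are the leading genes of a comparison without calls by edgeR, and their p-values are given as such.

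Total counts ran from 13274922 to 19173391 reads per library, and mitochondrially encoded genes took 4.62% to 8.29% of the reads. In every group the library numbered 3 was the one with Y-linked reads, so these reads are balanced between the genotypes and follow the number. The chamber-marking genes Wif1 and Aqp4 stood opposite to the ventricle label in the libraries labelled WntLOF LV 1 (13.5 and 31.2 CPM) and WntLOF RV 1 (2.55 and 8.11 CPM). The other LV libraries had 1.63 to 3.18 CPM of Wif1 and the other RV libraries 11.99 to 18.4 CPM. The library labelled control LV 2 correlated with WntLOF RV 1 at 0.46 (Pearson, deviations from the mean of all libraries over the tested genes). By deviations from group means it correlated at 0.29 with control RV 2, 0.32 with WntLOF LV 1 and 0.28 with WntLOF RV 1. Its origin is in doubt. The leading genes and the lists that shifted are therefore also given without these 3 libraries, which leaves 5 controls and 4 Wnt LOF libraries. Control RV 2 stays in, although Gm5514 (0.530 CPM) and Hsd17b7 (19.7 CPM) stood there at Wnt LOF levels, as in control LV 2. The reduced fit is therefore not free of doubtful libraries. Leaving out a control that resembles Wnt LOF can itself widen the differences, so these values are no separate support. List members counted there at an unadjusted p come from a fit whose share over all genes is not given here. Since the labels name no separate animals, p-values measure the spread between these libraries, which may be technical in part.

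The labels name no targeted gene, so the gene for beta-catenin itself, Ctnnb1 (ENSMUSG00000006932), comes first. Its level ran from 426 to 598 CPM in control (median 517) and from 352 to 532 CPM in Wnt LOF (median 417). The groups overlapped, since control LV 2 (426 CPM) lay among the Wnt LOF libraries and WntLOF LV 2 (532 CPM) among the controls. The log2 fold change was -0.29 (SE 0.10), with an unadjusted p of 0.0113 and an adjusted p of 1 by edgeR's quasi-likelihood test. It was -0.32 without the 3 doubtful libraries. Axin2 (ENSMUSG00000000142), a scaffold of the destruction complex and itself a beta-catenin target, stood at 6.44 ± 1.42 CPM in control (SD, n = 6) and at 6.11 ± 1.89 CPM in Wnt LOF (SD, n = 6). The difference of -0.08 (log2) was smaller than its standard error of 0.21, and was -0.22 without the 3 libraries. Lef1, a nuclear partner and target of beta-catenin, was too low to test, at 0.227 to 0.861 CPM in control and 0.181 to 0.575 CPM in Wnt LOF.

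**Figure D1:**
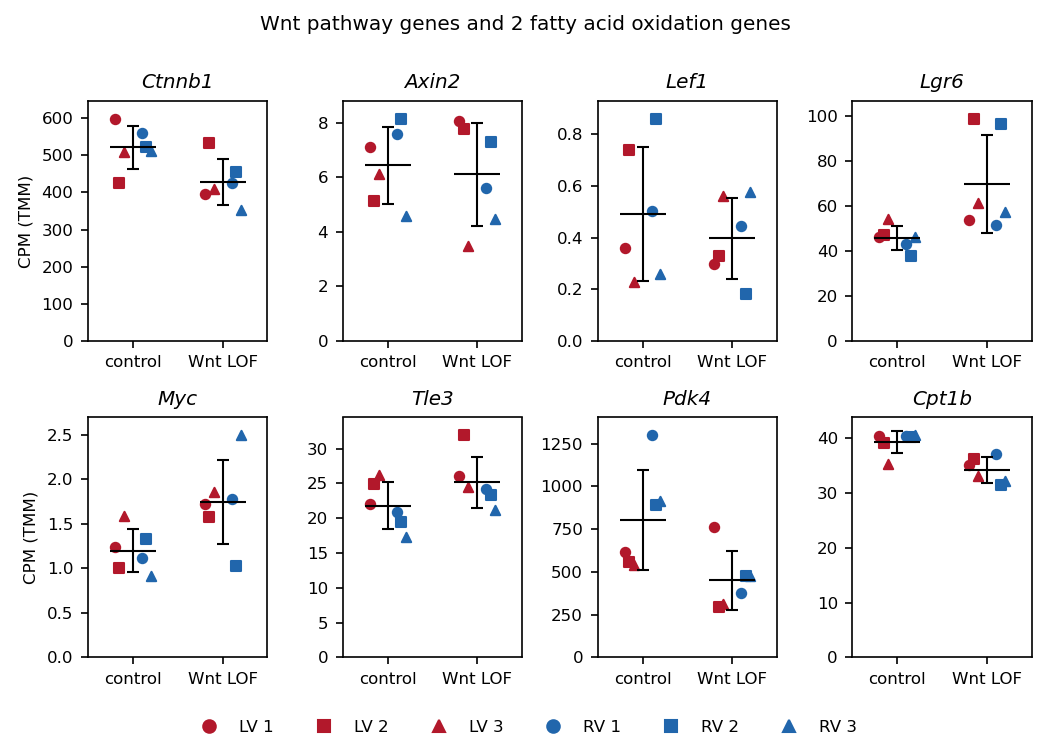
Levels (CPM after TMM scaling, linear axes from 0) of 6 Wnt pathway genes and the fatty acid oxidation genes Pdk4 and Cpt1b in the 12 libraries. Red points are LV, blue points RV, marker shapes are replicate numbers, and bars are mean ± SD over the 6 libraries of a genotype. Ctnnb1 overlaps between the genotypes, at 426 to 598 CPM in control and 352 to 532 CPM in Wnt LOF, and so do the other 7 genes.

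Ligands and receptors of the pathway showed no shared direction. Of 21 Wnt and R-spondin ligands in the table, 8 were high enough to test, and 5 of them lay above 0 and 3 below, with a median of 0.09. Wnt5a, a ligand of the non-canonical branch, differed by 0.18 on the log2 scale (SE 0.21). Of 17 tested receptors and co-receptors, 10 lay above 0 and 7 below, with a median of 0.02. Frizzled 4 (Fzd4) differed by 0.17 (SE 0.09), and the co-receptors Lrp5 and Lrp6 had -0.04 (SE 0.07) and -0.02 (SE 0.06). Wls, which carries Wnt ligands to the cell surface, ran from 41.9 to 55.9 CPM in control and from 45.4 to 58.5 CPM in Wnt LOF.

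Lgr6, a receptor for R-spondins, was the receptor farthest from 0. It ran from 37.9 to 54.2 CPM in control (median 46.3) and from 51.4 to 98.7 CPM in Wnt LOF (median 59.4). The 2 libraries of WntLOF 2 stood highest, at 98.7 CPM in the LV and 96.5 CPM in the RV, and the other 4 Wnt LOF libraries lay between 51.4 and 61.5 CPM. The difference was 0.61 on the log2 scale (SE 0.18, unadjusted p 0.00504 and adjusted p 1, edgeR). Averaged over the ventricles of a number, all 3 Wnt LOF values lay above all 3 controls. Leaving out the 3 doubtful libraries gave 0.77 (SE 0.18), and over all 30 alternatives the value ran from 0.30 to 0.78.

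Of 27 tested genes for beta-catenin, the destruction complex and the TCF partners, 12 lay above 0 and 15 below, with a median of -0.01. Of these, 3 members passed an unadjusted p of 0.05 by edgeR: Ctnnb1 lay lower, and Tle3 and Apc2 lay higher. Tle3, a corepressor that binds TCF factors, ran from 17.3 to 26.2 CPM in control and from 21.2 to 31.9 CPM in Wnt LOF, with a log2 fold change of 0.21 (SE 0.08; 0.22 without the 3 doubtful libraries). Apc2, a relative of the APC scaffold, differed by 0.17 (SE 0.07). The kinase Gsk3b had 0.11 (SE 0.08), the scaffold Apc -0.02 (SE 0.05), and plakoglobin (Jup), a close relative of beta-catenin, -0.05 (SE 0.07).

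The target and feedback genes were split in direction, with 8 of 19 tested members above 0, 11 below and a median of -0.02. Myc, a growth-promoting transcription factor, was the only one of them at an unadjusted p under 0.05 by edgeR. It ran from 0.914 to 1.59 CPM in control and from 1.02 to 2.49 CPM in Wnt LOF, with a log2 fold change of 0.55 (SE 0.22; 0.48 and an SE of 0.27 without the 3 doubtful libraries). Notum, a secreted enzyme that inactivates Wnt ligands, had -0.27 (SE 0.26), and Apcdd1, a membrane inhibitor, had -0.17 (SE 0.11). The cyclin Ccnd1 had -0.02 (SE 0.19). Of 7 tested secreted antagonists, 5 lay above 0 and 2 below. Sfrp1, which binds Wnt ligands, had 0.26 (SE 0.14), at 9.88 to 19.9 CPM in control and 12.8 to 19.8 CPM in Wnt LOF.

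The promoters of 4 of the 18 leading genes reported are shown because beta-catenin acts at TCF/LEF sites: the leading gene in each direction (Ano4 and Plin2), and the only 2 leading genes, of the 13 with an entry, that hold a TCF/LEF core (Bcl11b and Ky). Each is the 250 bases before the start of the gene in RefSeq, GRCm38.p6, printed 5′ to 3′ on the gene's strand. Their positions are chr10:89257791-89258040 (minus strand) for Ano4, chr4:86670060-86670309 (minus) for Plin2, chr12:108003415-108003664 (minus) for Bcl11b and chr9:102505888-102506137 (plus) for Ky. The build of the authors' own counting is not given in the sources used here. Capitals mark the core on either strand.
Ano4: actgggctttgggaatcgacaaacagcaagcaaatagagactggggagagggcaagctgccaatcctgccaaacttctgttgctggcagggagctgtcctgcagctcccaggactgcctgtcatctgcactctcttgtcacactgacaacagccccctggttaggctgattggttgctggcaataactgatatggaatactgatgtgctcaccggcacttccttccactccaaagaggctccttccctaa
Plin2: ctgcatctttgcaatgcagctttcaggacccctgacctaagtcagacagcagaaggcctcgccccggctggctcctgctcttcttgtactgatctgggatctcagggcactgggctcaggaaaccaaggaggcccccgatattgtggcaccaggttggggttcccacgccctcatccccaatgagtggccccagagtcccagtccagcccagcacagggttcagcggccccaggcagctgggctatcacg
Bcl11b: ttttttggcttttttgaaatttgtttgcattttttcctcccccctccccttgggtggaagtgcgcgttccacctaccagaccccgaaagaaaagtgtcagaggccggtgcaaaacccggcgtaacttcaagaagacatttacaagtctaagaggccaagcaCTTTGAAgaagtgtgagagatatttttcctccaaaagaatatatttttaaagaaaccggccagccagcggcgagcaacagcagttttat
Ky: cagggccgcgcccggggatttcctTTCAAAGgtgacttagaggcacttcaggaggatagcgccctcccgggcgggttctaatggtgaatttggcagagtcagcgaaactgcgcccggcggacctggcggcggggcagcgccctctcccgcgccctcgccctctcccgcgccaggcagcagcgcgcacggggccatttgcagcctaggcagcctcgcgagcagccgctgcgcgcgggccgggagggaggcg
The cores searched were CTTTGAT and CTTTGAA, on both strands. They occurred in 3.21% and 4.46% of 32851 mouse promoters of this length, and 7.48% held either. The core of Bcl11b starts 89 bases and that of Ky 226 bases before the gene start. The direct repeat of AGGTCA with 1 base between the copies, bound by PPAR receptors, which regulate lipid genes such as Plin2, was searched on both strands and occurred in 0.0335% of promoters and in no leading gene with an entry. A match is a description of the letters and not of binding.

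Ano4 and Hspa12a led the higher genes. Ano4 (ENSMUSG00000035189) encodes a membrane protein of the anoctamin family, which holds calcium-activated channels and lipid scramblases. It ran from 14.6 to 19.3 CPM in control (median 16.4) and from 20.2 to 25.4 CPM in Wnt LOF (median 22.8), without overlap. Its log2 fold change was 0.47 (SE 0.08, unadjusted p 4.33e-05 and adjusted p 0.416, edgeR). Hspa12a (ENSMUSG00000025092), a distant member of the HSP70 family, ran from 28.4 to 39.6 CPM in control (median 32.3) and from 41.4 to 48.4 CPM in Wnt LOF (median 43.3), also without overlap. The log2 fold change was 0.43 (SE 0.08, unadjusted p 6.71e-05 and adjusted p 0.416, edgeR). Both differences were larger without the 3 doubtful libraries, at 0.57 for Ano4 and 0.52 for Hspa12a.

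The other 8 higher genes overlapped between the genotypes in 1 or more libraries. Klhl3, a substrate adaptor of a ubiquitin ligase that acts on kinases of salt transport, stood at 7.34 ± 1.01 CPM in control (SD, n = 6) and at 9.60 ± 0.893 CPM in Wnt LOF (SD, n = 6). Csf1, the growth factor of macrophages, ran from 52.6 to 69.6 CPM in control and from 64.0 to 95.9 CPM in Wnt LOF, a log2 fold change of 0.36 (SE 0.10). The highest value belonged to WntLOF RV 3, and the 3 RV controls lay below all 6 Wnt LOF libraries. Slc38a1, an amino acid transporter, differed by 0.52 (SE 0.15), and WntLOF LV 2 alone reached 28.6 CPM where the other 5 Wnt LOF libraries had 13.4 to 20.01 CPM. Ky, a muscle protein of the Z-disc, differed by 0.28 (SE 0.08). Bcl11b, a zinc finger transcription factor, ran from 2.42 to 4.64 CPM in control and from 4.15 to 6.68 CPM in Wnt LOF, a difference of 0.51 (SE 0.15). Pcp4l1 (0.32, SE 0.09), Auts2 (0.24, SE 0.07) and Slc12a9 (0.39, SE 0.12), given as log2 fold changes, completed the 10. Auts2 is a nuclear regulator of transcription, and Slc12a9 belongs to the cation-chloride cotransporter family. Adjusted p was 1 for each of these 8 genes by edgeR. With the 3 doubtful libraries left out, their log2 fold changes ran from 0.23 for Auts2 to 0.69 for Bcl11b.

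Among the lower genes, Plin2, Olfml2b and Ednrb did not overlap between the genotypes. Plin2 (ENSMUSG00000028494), which coats lipid droplets, ran from 74.4 to 93.9 CPM in control (median 82.1) and from 54.8 to 69.7 CPM in Wnt LOF (median 64.5). The difference was -0.36 on the log2 scale (SE 0.07, unadjusted p 8.06e-05 and adjusted p 0.416, edgeR), and -0.41 without the 3 doubtful libraries. Olfml2b (ENSMUSG00000038463), an extracellular matrix protein with an olfactomedin domain, ran from 26.0 to 36.9 CPM in control and from 19.05 to 24.4 CPM in Wnt LOF. Its log2 fold change was -0.47 (SE 0.10, adjusted p 0.618, edgeR). Ednrb (ENSMUSG00000022122), the endothelin receptor type B, ran from 24.3 to 38.5 CPM in control and from 17.0 to 23.3 CPM in Wnt LOF, a log2 fold change of -0.48 (SE 0.12, adjusted p 0.977, edgeR). The values without the 3 doubtful libraries were -0.52 for Olfml2b and -0.49 for Ednrb.

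Aqp1, Fabp5, Adhfe1, Heatr5b and Hjurp also lay lower, with overlap. Aqp1, the water channel of capillary endothelium and red cells, ran from 509 to 686 CPM in control and from 416 to 511 CPM in Wnt LOF. Control LV 2 was the lowest control (509 CPM), just under WntLOF LV 1 (511 CPM). The log2 fold change of Aqp1 was -0.38 (SE 0.08, adjusted p 0.753, edgeR). Fabp5, a fatty acid carrier, ran from 10.4 to 15.6 CPM in control and from 6.62 to 11.1 CPM in Wnt LOF, and again control LV 2 was the lowest control. The difference was -0.62 on the log2 scale (SE 0.14, adjusted p 0.753, edgeR). Adhfe1, a mitochondrial hydroxyacid transhydrogenase, differed by -0.40 (SE 0.09), with control LV 2 (54.6 CPM) apart from the other controls (75.8 to 91.7 CPM). Hjurp, a chaperone of the centromeric histone, differed by -0.64 (SE 0.16), and control LV 2 had 39.8 CPM where the other controls had 61.1 to 85.5 CPM. Heatr5b, linked to vesicle transport, differed by -0.32 (SE 0.08). When the 3 doubtful libraries were left out, Aqp1 was at -0.48, Fabp5 at -0.65, Adhfe1 at -0.44, Hjurp at -0.75 and Heatr5b at -0.37.

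**Figure D2:**
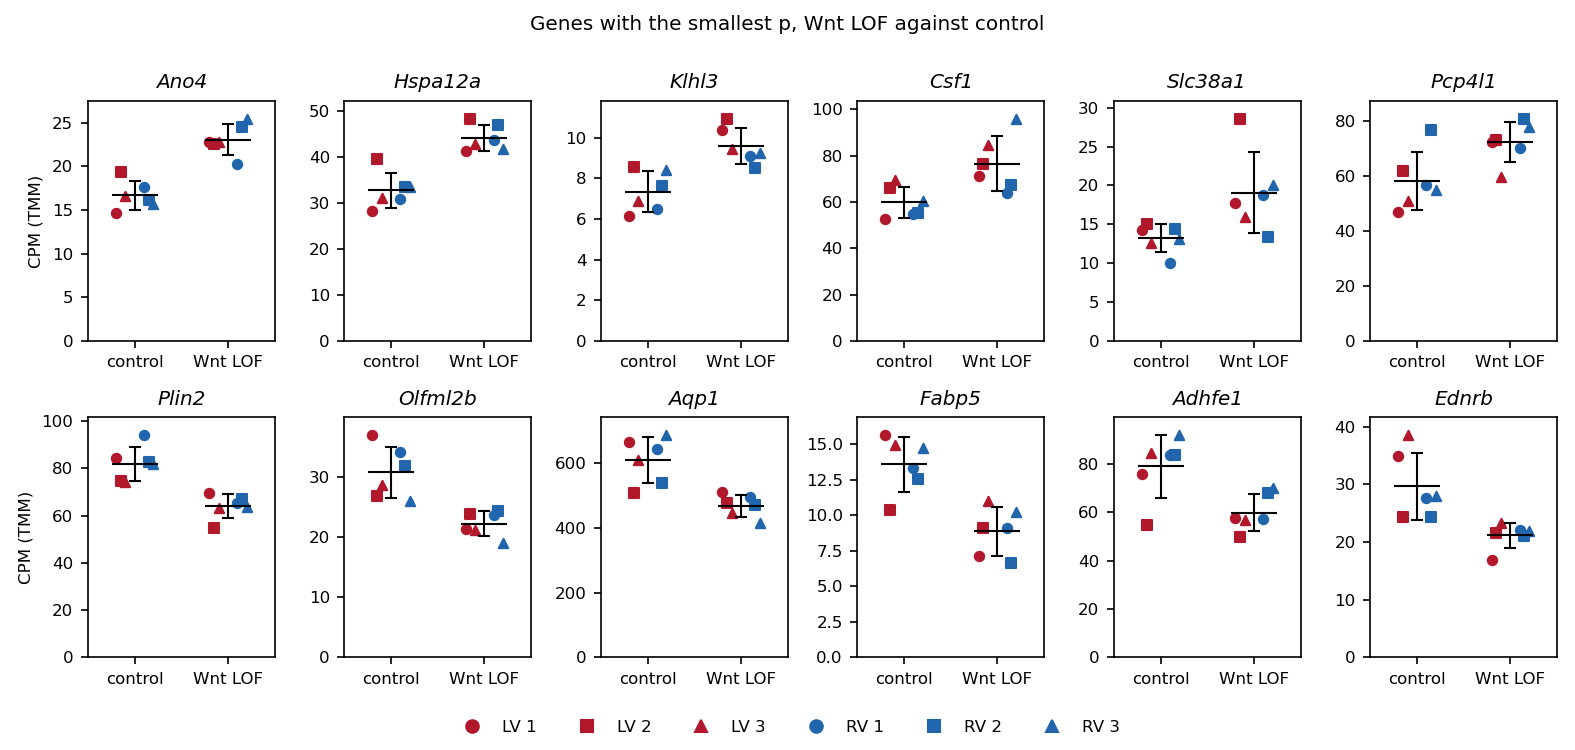
Levels (CPM after TMM scaling, linear axes from 0) of 6 higher genes (top row) and 6 lower genes (bottom row), those reported with the smallest p, in the 12 libraries. Red points are LV, blue points RV, marker shapes are replicate numbers, and bars are mean ± SD over the 6 libraries of a genotype. Ano4, Hspa12a, Plin2, Olfml2b and Ednrb do not overlap between the genotypes, and the other 7 genes do.

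Of the 25 genes without overlap, 19 were outside the leading genes and were named after their values were seen. Lgi2, a secreted leucine-rich protein, had a mean of 0.592 CPM in control and 1.65 CPM in Wnt LOF, and the beta-tubulin Tubb2b had 2.03 CPM in control and 0.997 CPM in Wnt LOF. Decr2, an enzyme of peroxisomal fatty acid oxidation, ran from 16.4 to 17.5 CPM in control and from 13.9 to 14.9 CPM in Wnt LOF. Its log2 fold change was -0.22 (SE 0.06). Separation of the libraries did not require a low p: Jak2, a cytokine receptor kinase, was lower in all 6 Wnt LOF libraries with a log2 fold change of only -0.07 (SE 0.05) and an unadjusted p of 0.163 by edgeR. Leaving out the 3 doubtful libraries, 137 genes (0.884%) had all 4 Wnt LOF libraries above all 5 controls and 117 (0.755%) had them below. Fewer libraries separate more easily by their order alone, so these shares are not comparable with those of all libraries. Whether either share exceeds that of a random order was not tested.

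Potassium and pacemaker channel genes lay mostly above 0, with 23 of 26 tested members above and a median of 0.09. Of these, 3 passed an unadjusted p of 0.05 by edgeR, all higher. Kcnq1, the pore subunit of the slow delayed rectifier, ran from 47.7 to 65.8 CPM in control and from 58.8 to 74.9 CPM in Wnt LOF, a log2 fold change of 0.20 (SE 0.08; 0.32 without the 3 doubtful libraries). Kcnab1, an auxiliary subunit, ran from 1.83 to 2.72 CPM in control and from 2.43 to 3.72 CPM in Wnt LOF, a log2 fold change of 0.36 (SE 0.15). Kcna4, a pore subunit of the slow transient outward current, differed by 0.44 (SE 0.19). Kcnip2, an auxiliary subunit of the fast transient outward current, stood at 208 ± 12.04 CPM in control (SD, n = 6) and at 233 ± 34.8 CPM in Wnt LOF (SD, n = 6). Its pore partner Kcnd2 followed the ventricle, at 31.2 to 95.8 CPM in control, and its log2 fold change of 0.09 had an SE of 0.31. Kcnj2, the main inward rectifier, differed by 0.04 (SE 0.10). Without the 3 doubtful libraries 20 of 26 lay above 0 with a median of 0.11, and 6 passed the unadjusted threshold, all higher. As the share over all genes in that fit is not given, the rise from 3 to 6 is not read as a result.

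Gja1, which encodes connexin 43, the main gap junction protein of ventricular muscle, stood at 316 ± 34.4 CPM in control (SD, n = 6) and at 318 ± 28.2 CPM in Wnt LOF (SD, n = 6). The log2 fold change of 0.01 (SE 0.08) was far below the spread. Sodium and calcium channel genes were split, 7 of 14 above 0 and 7 below, as were calcium handling genes, 8 of 15 above and 7 below. Irx2, an Iroquois transcription factor, ran from 3.91 to 9.67 CPM in control and from 3.38 to 6.26 CPM in Wnt LOF (log2 fold change -0.44, SE 0.20; -0.28 without the 3 doubtful libraries), while its relative Irx5 had 0.16 (SE 0.21). Myl2, the ventricular regulatory light chain, had a log2 fold change of -0.63 (SE 0.27) with wide overlap. The stress genes Nppa, Nppb and Myh7 had log2 fold changes of 0.34 (SE 0.41), 0.02 (SE 0.66) and -0.02 (SE 0.09).

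Fatty acid oxidation genes lay mostly below 0, with 26 of 31 tested members below and a median of -0.06. Leaving out the 3 doubtful libraries gave 24 of 31 below 0 and a median of -0.05. Pdk4, the kinase that shuts pyruvate out of oxidation when fat is burnt, was the farthest from 0. In control it had 619, 557 and 541 CPM in the LV and 1299, 894 and 917 CPM in the RV. In Wnt LOF it had 763, 297 and 313 CPM in the LV and 376, 478 and 477 CPM in the RV. All Wnt LOF libraries other than WntLOF LV 1 lay below all controls. The pooled log2 fold change was -0.77 (SE 0.27, unadjusted p 0.0147 and adjusted p 1, edgeR). Without WntLOF LV 1 it was -1.08 and called (adjusted p 0.00201, edgeR), and without all 3 doubtful libraries it was -1.03 and called (adjusted p 0.0152, edgeR). Of the 30 alternatives of the pooled fit 3 called Pdk4, and all of these left out WntLOF LV 1. Leaving out the only Wnt LOF library that overlaps the controls widens the difference, so these calls are no separate support. Cpt1b, the carnitine transferase by which fatty acids enter mitochondria in muscle, ran from 35.3 to 40.5 CPM in control and from 31.4 to 37.1 CPM in Wnt LOF, a log2 fold change of -0.20 (SE 0.06). Ppara, the lipid-sensing receptor that regulates many of these genes, had -0.16 (SE 0.09), and the fatty acid transporter Cd36 had -0.04 (SE 0.06).

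Nuclear genes of the respiratory chain had 28 of 30 tested members below 0, with a median of -0.06 and none at an unadjusted p under 0.05 by edgeR. Without the 3 doubtful libraries 17 of 30 lay above 0 and the median was 0.03. The 7 tested mitochondrially encoded genes had 6 members above 0 and a median of 0.13, or 7 and 0.23 without those libraries. Their summed level ran from 39887 to 65293 CPM in control and from 37021 to 80747 CPM in Wnt LOF. Glycolysis and pyruvate genes had 15 of 23 below 0 with a median of -0.02.

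Heat shock and unfolded protein response genes had 19 of 22 tested members below 0, with a median of -0.10, and 3 of them passed an unadjusted p of 0.05 by edgeR. Hspb1, a small heat shock protein, ran from 35.3 to 55.5 CPM in control and from 27.9 to 39.5 CPM in Wnt LOF, a log2 fold change of -0.37 (SE 0.12). The inducible chaperone Hspa1a had 0.588 to 1.80 CPM in control and 0.383 to 0.833 CPM in Wnt LOF. The log2 fold change was -0.80 (SE 0.31), and reads shared with its near-identical copy Hspa1b (-0.54, SE 0.34) make both uncertain. Hsp90aa1, the inducible HSP90, had -0.33 (SE 0.15). Without the 3 doubtful libraries 19 of 22 again lay below 0, and 6 passed the unadjusted threshold, all lower. Here too the share over all genes in that fit is not given, so the counts of 3 and 6 are not compared. Immediate early genes, which respond to stress within minutes, were split with 10 of 21 above 0, and Atf3 among them had -0.71 (SE 0.27), or -1.098 without those libraries.

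Extracellular matrix genes had 22 of 26 tested members above 0 and a median of 0.08. The fit without the 3 doubtful libraries had 20 of 26 above 0 and a median of 0.06. Fn1, which encodes fibronectin, ran from 42.5 to 54.0 CPM in control and from 49.3 to 62.1 CPM in Wnt LOF, a log2 fold change of 0.22 (SE 0.08). Col5a1, a chain of collagen V, had 0.19 (SE 0.07). Fmod, a collagen-binding proteoglycan, had 1.17 (SE 0.50), and its 4 highest libraries were WntLOF 2 and WntLOF 3, at 1.71 and 2.30 CPM in the LV and 5.12 and 5.31 CPM in the RV. The 2 libraries of WntLOF 1 had 0.712 and 0.389 CPM, below the control range of 0.720 to 1.59 CPM. Fmod was called without both of them, at 1.64 (SE 0.22, adjusted p 0.0327, edgeR), and without the 3 doubtful libraries it was at 1.67 (adjusted p 0.066, edgeR). The fibroblast markers had a summed level of 2936 to 4320 CPM in control and 3280 to 4116 CPM in Wnt LOF, and 8 of 12 lay above 0 with a median of 0.01, or 5 of 12 with a median of -0.01 without the 3 doubtful libraries.

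Notch pathway genes had 10 of 16 tested members below 0 and a median of -0.11, and 3 passed an unadjusted p of 0.05 by edgeR, all lower. The fit without the 3 doubtful libraries had 11 of 16 below 0 (median -0.14), and there 4 members passed lower and 1 higher. Hes1, a direct Notch target, ran from 13.02 to 19.9 CPM in control and from 12.1 to 15.5 CPM in Wnt LOF, a log2 fold change of -0.32 (SE 0.10). The receptor Notch1 had -0.18 (SE 0.07) and the feedback gene Nrarp -0.23 (SE 0.10). Rbpj, the DNA-binding partner of Notch, lay the other way at 0.22 (SE 0.10). Endothelial cells are a main site of Notch1, and endothelial markers had 13 of 14 members below 0 with a median of -0.06. Leaving out the 3 doubtful libraries, 11 of 14 of these markers lay below 0, with a median of -0.06. Their summed level was 1886 to 2194 CPM in control and 1730 to 2041 CPM in Wnt LOF, with Cldn5, a tight junction protein, at -0.34 (SE 0.12). Their part in the Notch, Aqp1 and Ednrb differences was not tested. In bulk tissue, fewer cells of a type and less RNA per cell cannot be told apart.

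Macrophage markers had 11 of 13 members above 0 and a median of 0.09, beside the higher level of Csf1. Their summed level ran from 299 to 381 CPM in control and from 308 to 393 CPM in Wnt LOF. Cd68, a lysosomal protein of macrophages, differed by 0.30 on the log2 scale (SE 0.13), and the mannose receptor Mrc1 had 0.20 (SE 0.08). Interferon response genes had 22 of 29 members above 0 and a median of 0.05. Ifit3 ran from 3.38 to 5.27 CPM in control and from 3.02 to 6.79 CPM in Wnt LOF (log2 fold change 0.47, SE 0.18), and Oasl2 differed by 0.42 (SE 0.16). Both are antiviral effectors induced by interferon. With the 3 doubtful libraries left out, the macrophage list had 12 of 13 above 0 with a median of 0.19, and the interferon list had 26 of 29 above 0 with a median of 0.12. Cd68 was then at 0.47 and Ifit3 at 0.73.

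Clock genes were evenly split, 9 above 0 and 9 below. The activator Arntl lay lower (log2 fold change -0.45, SE 0.21), and Npas2 (0.52, SE 0.22) and the output factor Dbp (0.26, SE 0.11) lay higher. The time of day at which the hearts were taken is not in the labels. Hypoxia and glucocorticoid genes had 13 of 18 below 0 with a median of -0.11, or 12 and -0.08 without the 3 doubtful libraries. Ankrd37, a target of hypoxia-inducible factors, had -0.44 (SE 0.18). Sgk1, a kinase induced by glucocorticoids that acts on ion transport, lay the other way at 0.31 (SE 0.12). Ventricular muscle markers, which check the tissue, summed to 65134 to 72197 CPM in control and 64246 to 69989 CPM in Wnt LOF. Atrial markers summed to 115 to 180 CPM in control and 148 to 193 CPM in Wnt LOF. Among them Myl4, the atrial light chain, had 10.7 CPM in WntLOF RV 3 and 1.29 to 2.86 CPM in the other 11 libraries.

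The remaining lists had medians between -0.02 and 0.22 and no gene called. Cell cycle genes had 16 of 21 above 0 (median 0.07, or 0.19 without the 3 doubtful libraries), cardiac transcription factors 13 of 21 (median 0.04), connexins and intercalated disc genes 5 of 14 (median -0.02) and sarcomere genes 6 of 21 (median -0.02). Mural and smooth muscle markers had 8 of 10 above 0, at a summed 2137 to 2290 CPM in control and 2211 to 2612 CPM in Wnt LOF. When the 3 doubtful libraries were left out, these markers had 6 of 10 above 0 and sarcomere genes 10 of 21. Erythroid markers ran widely, from 110 to 248 CPM in control and from 77.5 to 322 CPM in Wnt LOF. Only 3 of 9 adipocyte markers and 5 of 12 lymphocyte markers were high enough to test, and lymphocyte markers summed to 15.1 to 19.01 CPM in control and 13.5 to 21.99 CPM in Wnt LOF. Schwann cell markers (48.4 to 65.0 CPM in control, 54.2 to 60.8 CPM in Wnt LOF) and conduction markers (83.8 to 102 CPM in control, 74.5 to 119 CPM in Wnt LOF) overlapped as well.

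**Figure D3:**
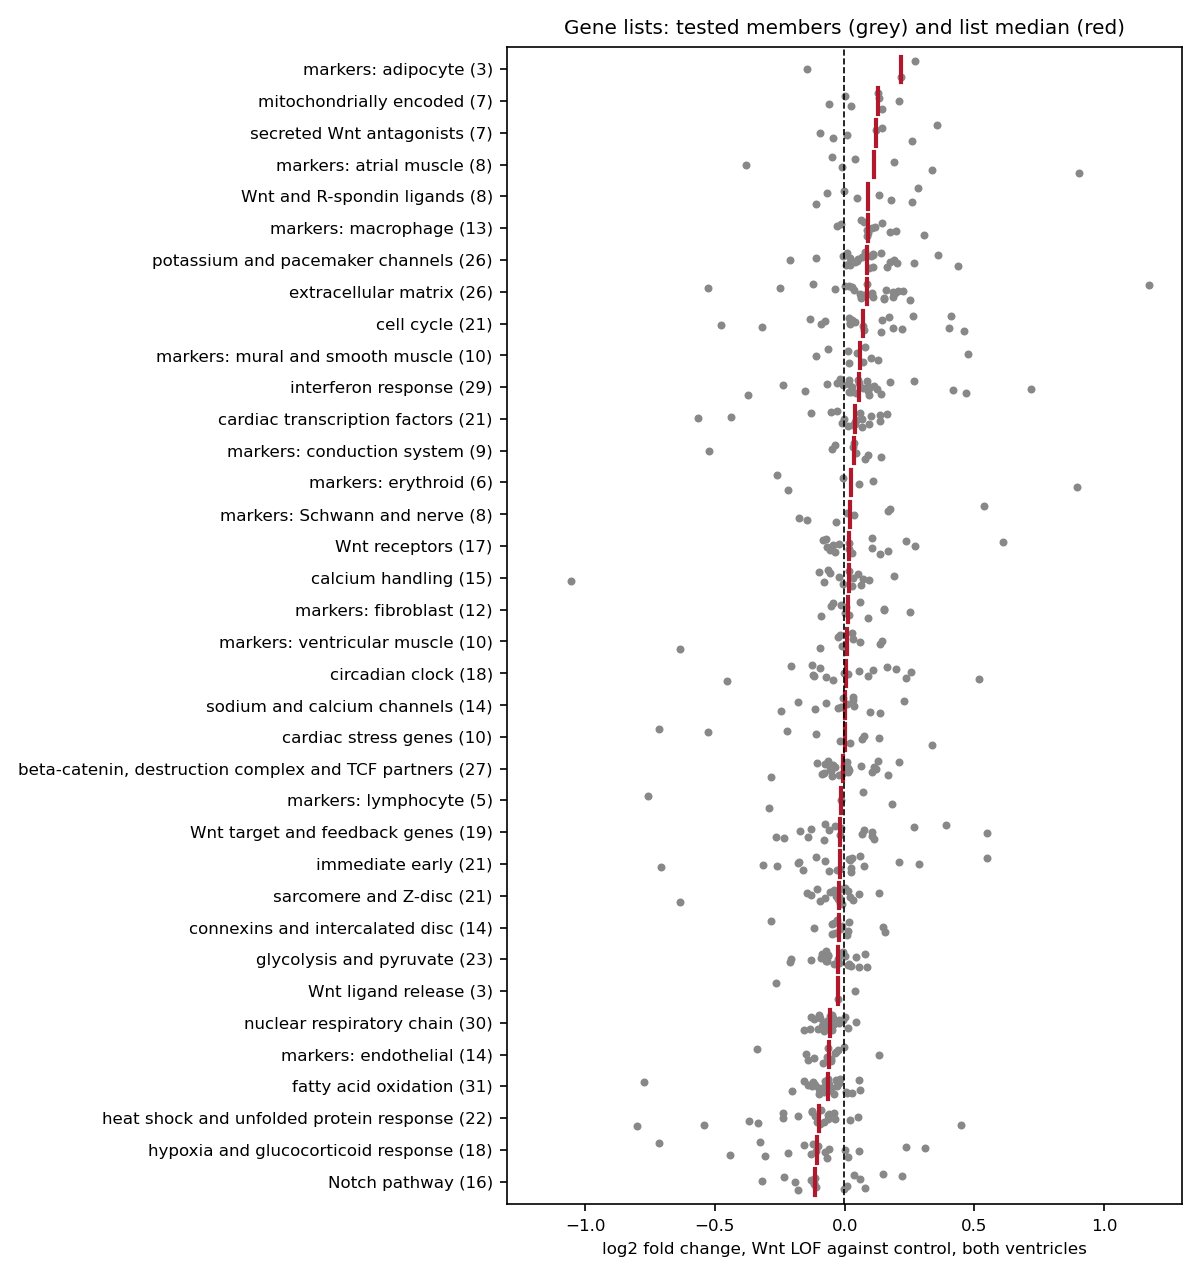
Log2 fold change of Wnt LOF against control (x axis, both ventricles) for the tested members of 36 gene lists, with the number tested in brackets. Grey points are genes, red bars list medians, and the dashed line is the median of all tested genes (-0.002). 2 members lie outside the axis. List medians run from -0.11 for the Notch pathway to 0.22 for the 3 tested adipocyte markers.

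To count a possible heart once, the 2 ventricles of each number were summed and compared 3 against 3. Again no gene was called (0%), edgeR gave a smallest adjusted p of 0.999987, and 273 genes (1.76%) reached an unadjusted p under 0.05, of which 247 were also under it in the pooled fit. DESeq2 called 1 gene on these sums, Pdk4 (adjusted p 0.00416), and limma-trend on the mean log2 CPM called 0. The 2 fits used the same reads. The 3 Wnt LOF values lay all above or all below the 3 controls for 1003 genes (6.47%). Labels set at random would split 3 against 3 this way with a probability of 0.1. Ano4, as the mean log2 CPM of the 2 ventricles, had 4.02, 4.15 and 4.02 in control and 4.43, 4.56 and 4.60 in Wnt LOF. Plin2 had 6.48, 6.30 and 6.29 in control and 6.08, 5.92 and 5.99 in Wnt LOF. Pdk4 had 9.81, 9.46 and 9.46 in control and 9.07, 8.56 and 8.59 in Wnt LOF, without overlap, and its log2 fold change from the summed counts was -0.83 (SE 0.17, unadjusted p 0.00153, edgeR). The exact permutation test, 2-sided, gave 0.1 for Ano4, Plin2 and Pdk4, the smallest p that 3 against 3 allows. For Ano4 and Plin2 this outcome was fixed in advance, since all 6 Wnt LOF libraries already lay apart from all 6 controls. Ctnnb1 overlapped, at 9.18, 8.88 and 8.99 in control and 8.68, 8.94 and 8.57 in Wnt LOF, with an exact permutation p of 0.2.

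Some genes separated the numbers within control, and they were chosen after their values were seen. Gm5514, a predicted gene, had 11.0 to 13.9 CPM in both ventricles of control 1 and control 3. It had 0.530 and 0.685 CPM in control 2, and 0.333 to 0.856 CPM in the 6 Wnt LOF libraries. Hsd17b7, an enzyme of cholesterol synthesis, had 1.44 to 1.84 CPM in control 1 and control 3, 13.5 and 19.7 CPM in control 2, and 12.7 to 28.4 CPM in Wnt LOF. Both genes thus put control 2 with the Wnt LOF libraries. Without both libraries of control 2, edgeR called 7 genes, and Gm5514 (adjusted p 2.07e-07) and Hsd17b7 (adjusted p 0.000526) led them. On the summed counts without control 2 and WntLOF 1, a comparison of 2 against 2, edgeR called these 2 genes. Both were chosen for how they set control 2 apart, so their calls without it are no further evidence of a difference by genotype.

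The effect in each ventricle was compared by the interaction of genotype and ventricle, and no gene was called (0%). By edgeR the smallest adjusted p was 0.999614, and an unadjusted p under 0.05 was reached by 312 genes. The ventricles are given here as labelled, although Wif1 and Aqp4 stood opposite to the label in both libraries of WntLOF 1, so each value is also given without the 3 doubtful libraries. Hspa12a had 0.42 in the LV and 0.44 in the RV, and 0.62 and 0.44 without those libraries. Klhl3 had 0.51 in the LV and 0.26 in the RV, and 0.65 and 0.24 without them. Since the leading genes were chosen on the pooled difference, a shared sign is no further evidence. Pdk4 had -0.32 in the LV and -1.22 in the RV (interaction unadjusted p 0.0743, edgeR), and WntLOF LV 1 was the highest of all 6 LV libraries. Without the 3 doubtful libraries Pdk4 was at -0.93 in the LV and -1.12 in the RV, and the interaction p was 0.43 (unadjusted, edgeR). Sgk1 had 0.07 in the LV and 0.56 in the RV (interaction unadjusted p 0.0244, edgeR). Without those libraries it was at 0.32 in the LV and 0.50 in the RV, with an interaction p of 0.33 (unadjusted, edgeR). For both genes the gap between the chambers was smaller without the doubtful libraries. Ednrb had -0.66 in the LV and -0.30 in the RV, and -0.71 and -0.31 without them (interaction unadjusted p 0.121 and 0.035, edgeR). The gap of Mir6236 was wider without them. It had 1.26 in the LV and -0.28 in the RV, and then 1.15 and -0.73 (interaction unadjusted p 0.0312 and 0.000294, edgeR). Ctnnb1 had -0.20 in the LV and -0.37 in the RV, and -0.23 and -0.40 without them. The interaction called no gene without the 3 libraries either, and 247 genes then had an unadjusted p under 0.05.

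**Figure D4:**
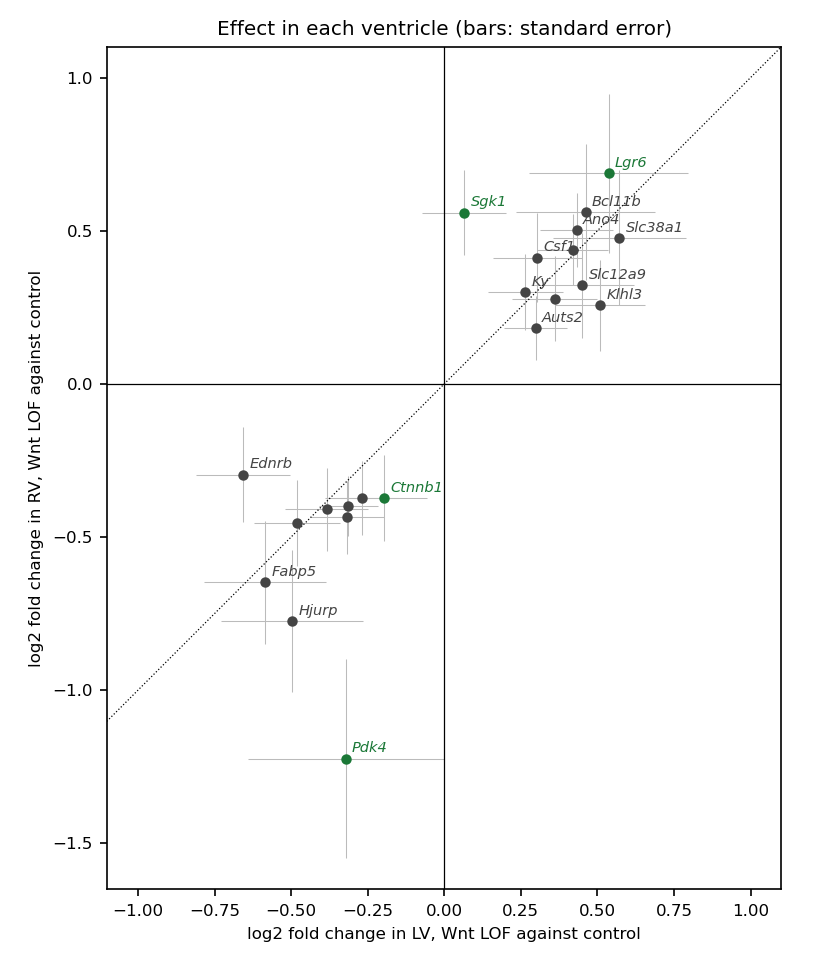
Log2 fold change of Wnt LOF against control in the LV (x axis) and in the RV (y axis), all 12 libraries with the ventricles as labelled, for the 18 leading genes reported (black) and for Ctnnb1, Lgr6, Pdk4 and Sgk1 (green). Bars are standard errors, the dotted line marks equal values, and some crowded points are unnamed. Pdk4 lies farthest below the line, at -0.32 in the LV and -1.22 in the RV, and Sgk1 lies above it, where both lie nearer to it without the 3 doubtful libraries.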

How the data were processed

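The authors deposited a table of raw read counts per Ensembl gene; per the submitters' processing notes the tools included featureCounts (Subread) and edgeR. Not given in the sources used here are the aligner, versions, genome build and strand setting. Overlapping and antisense genes, and near-identical copies, are therefore uncertain. The table had 41192 rows for 40594 genes, and 598 repeated rows were left out. Groups come from the labels.

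Counts of the 12 libraries were analysed with edgeR 4.0.16 in R 4.3.3 (limma 3.58.1 and DESeq2 1.42.0 for alternatives). filterByExpr by the 4 groups kept 15494 genes, scaled with TMM factors from 0.961 to 1.04. A robust quasi-likelihood model held ventricle and genotype. Counts summed over the 2 ventricles of a number were fitted 3 against 3, and a model of group means gave the interaction. Adjustment was by Benjamini-Hochberg over all tested genes (threshold 0.05). Each SE is the absolute log2 fold change divided by the root of the F statistic. Per-heart values used a prior count of 2. The computations were tested on simulated data.

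Named genes were Ctnnb1, Axin2 and Lef1; in each direction, up to 12 called genes or otherwise the 10 with the smallest p at a mean log2 CPM of at least 1, without predicted genes; per list up to 2 members; and fixed genes. Some genes that this rule takes are not reported here. Other members and genes named were chosen after their values were seen. The comparison and the 37 lists were chosen with earlier results of these data known. No set test was run.

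Libraries of equal number and genotype deviated together between the ventricles (correlations of 0.191 to 0.594 in 6 pairs, against -0.380 to 0.201 for other numbers). The highest were the number 3 pairs (0.517 in control, 0.594 in Wnt LOF), and number 3 is the one with Y-linked reads. The pairs of WntLOF 1 (0.191) and WntLOF 2 (0.197) lay just below WntLOF LV 1 with WntLOF RV 2 (0.201). Between genotypes the same number gave -0.0903 to 0.306, and other numbers gave -0.237 to 0.321. Whether a number marks 1 heart is not in the labels. Alternatives were other scalings, filters and tools, other covariates, single ventricles, and leaving out libraries.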

Additional observations from a re-analysis of the deposited data

Results flagged for a closer look

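Of 120 groups of 6 libraries (60 genes in 2 genotypes), 5 had a library whose gap to its neighbour exceeded Dixon's critical value for 6, and chance flags about 1 in 20 groups. Each group pools the LV and RV. Slc12a9 had 6.92 CPM in WntLOF RV 2, where the other 5 Wnt LOF libraries had 8.89 to 9.87 CPM. Adhfe1 had 54.6 CPM in control LV 2, where the other controls had 75.8 to 91.7 CPM. Ednrb had 17.0 CPM in WntLOF LV 1, where the other Wnt LOF libraries had 21.1 to 23.3 CPM. Cpt1b had 35.3 CPM in control LV 3, where the other controls had 39.1 to 40.5 CPM. Nr2f1, a nuclear receptor of atrial muscle, had 2.68 CPM in control LV 1, where the other controls had 3.53 to 4.11 CPM. Control LV 2 and WntLOF LV 1 are among the 3 libraries of doubtful origin or ventricle.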

How the results depend on the processing

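In the pooled comparison DESeq2 called 8 genes (Ano4, Hspa12a, Plin2, Olfml2b, Aqp1, Fabp5, Gm5514 and A930005H10Rik), and the fit without WntLOF LV 1, WntLOF RV 1 and control LV 2 called 1 (Pdk4). Leaving out 1 library or 1 number gave 0 to 7 calls: 2 without control LV 2, 1 without WntLOF LV 1, 7 without both libraries of control 2 and 2 without both of WntLOF 1. In the 3 against 3 comparison DESeq2 called 1 gene (Pdk4, adjusted p 0.00416), and leaving out a number gave 0 to 1. Leaving out both control 2 and WntLOF 1, chosen after seeing the data, gave 2 (Gm5514 and Hsd17b7). With a replicate block both comparisons called 0 genes, and the interaction called 0 in its 3 alternatives. The cause of these changes was not tested. The sign of Ctnnb1 and of the 18 leading genes reported held in all 30 alternatives. The leading genes were chosen on the pooled difference and the alternatives reuse the same reads, so their kept sign is no further evidence. The genes whose sign changed were Axin2 and 10 of the fixed genes. In 1 ventricle alone the log2 fold change was 0.077 for Axin2 (LV), -0.074 for Gja1 (RV), -0.30 for Kcnd2 (RV), -0.086 for Kcnj2 (RV), -0.098 for Irx5 (LV), -0.97 for Nppb (LV), 0.12 for Myh7 (LV), -0.51 for Wif1 (RV), -0.23 for Aqp4 (RV) and -0.27 for Mir6236 (RV). Without the ventricle covariate Kcnd2 was -0.011, Nppb -0.30 and Wif1 -0.13. With each combination of number and genotype as a random block (limma voom) Kcnd2 was -0.045, Nppb -0.41, Wif1 -0.60 and Aqp4 -0.014. Without the 3 doubtful libraries Gja1 was -0.033, Kcnd2 -0.053, Nppb -0.049 and Wif1 -0.29. Leaving out 1 library or number gave -0.24 to 0.16 for Axin2, -0.071 to 0.084 for Gja1, -0.21 to 0.34 for Kcnd2, -0.052 to 0.11 for Kcnj2, -0.017 to 0.67 for Nppa, -0.34 to 0.41 for Nppb, -0.093 to 0.068 for Myh7, -0.60 to 0.47 for Wif1 and -0.029 to 0.67 for Aqp4. Depth left Lef1 and other genes of its level untested.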
